A study of Mus musculus with 8 samples.

Results

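Binding was examined at 9 genes, *Gata2*, *Gata6*, *Sox4*, *Sox9*, *Sox17*, *Gata3*, *Gata4*, *Sox2* and *Sox11*, chosen by name as GATA and SOX factor genes from the 21938 protein-coding genes that the GENCODE annotation places on mm10 outside the mitochondrial genome. Their chromatin was assayed by chromatin immunocleavage sequencing (ChIC-Seq), in which micrococcal nuclease fused to protein A/G is brought to the antigen by an antibody in fixed cells and the fragments it releases are sequenced. The antibodies were against PBRM1 (BAF180, a subunit of the PBAF form of SWI/SNF) and BRG1 (SMARCA4, the ATPase of SWI/SNF), with 3 replicates each. Primary stromal cells of the uterus came from WT mice aged 8 to 12 weeks on D4, which the labels give as pregnancy and the extraction protocol as pseudopregnancy, with 5 to 10 mice in a pool and 50000 cells in a library. The ChIC-Seq samples held no other genotype or treatment, and the cells had been kept for some hours in medium with serum before fixation. The 2 IgG libraries were not analysed here.

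GATA factors are zinc-finger proteins that bind the letters GATA, and SOX factors bend DNA through an HMG box that reads a short A- and T-rich motif. Both families set cell identity during development, and SWI/SNF uses ATP to move nucleosomes at promoters and enhancers, those of developmental genes included. In the uterus GATA2 acts together with the progesterone receptor, SOX17 is an epithelial factor needed for implantation, SOX9 is found in the glandular epithelium, SOX4 has been tied to decidualization of stroma, and GATA6 has been studied in endometriosis. GATA3 is best known from T cells and trophoblast, GATA4 from heart and gonad, SOX2 from pluripotent and neural cells, and SOX11 from developing neurons. The first 5 genes were therefore set against the last 4 as uterine factors against factors of other lineages. The study also assayed GATA4 protein in uterine stromal cells, so that *Gata4* could stand in either group. Both placements were computed for differences in peaks per gene, and not for counts of genes with a promoter peak.

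A site here is a stretch covered by a pooled PBRM1 peak, a pooled BRG1 peak or both, where pooled means called on the joined fragments of the 3 replicates of an antibody. A peak counted as a promoter peak when at least 1 bp of it lay within 2 kb of any annotated transcription start site (TSS) of the gene. Distances are from the summit of the pooled BRG1 peak to the nearest TSS of the gene, negative upstream. The 201-bp windows around 7 summits are printed because these sites outside coding exons recurred in 4 or more of the 6 replicate lists, and capitals mark CpG dinucleotides (mm10, RefSeq assembly).
*Gata2* site at -46261 bp, chr6:88147530-88147730, plus strand: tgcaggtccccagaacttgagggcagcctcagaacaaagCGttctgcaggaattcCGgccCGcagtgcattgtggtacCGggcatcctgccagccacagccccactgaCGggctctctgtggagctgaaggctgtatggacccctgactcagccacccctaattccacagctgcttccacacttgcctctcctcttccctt
*Gata2* site at -4039 bp, chr6:88189752-88189952, plus strand: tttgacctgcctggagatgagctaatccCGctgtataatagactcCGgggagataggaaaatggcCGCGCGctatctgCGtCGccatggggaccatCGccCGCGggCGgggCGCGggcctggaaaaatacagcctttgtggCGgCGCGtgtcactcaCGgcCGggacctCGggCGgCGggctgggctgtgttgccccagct
*Gata2* site at 38342 bp, chr6:88242687-88242887, plus strand: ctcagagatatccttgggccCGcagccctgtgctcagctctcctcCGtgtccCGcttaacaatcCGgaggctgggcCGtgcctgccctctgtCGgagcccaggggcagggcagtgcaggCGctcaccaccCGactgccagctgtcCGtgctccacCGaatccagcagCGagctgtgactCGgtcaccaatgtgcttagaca
*Sox4* site at -5895 bp, chr13:28959508-28959708, plus strand: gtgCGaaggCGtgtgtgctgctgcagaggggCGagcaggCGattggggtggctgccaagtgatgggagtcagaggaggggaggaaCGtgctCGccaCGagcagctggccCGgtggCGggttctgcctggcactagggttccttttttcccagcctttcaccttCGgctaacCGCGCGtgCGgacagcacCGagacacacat
*Sox4* site at -4917 bp, chr13:28958530-28958730, plus strand: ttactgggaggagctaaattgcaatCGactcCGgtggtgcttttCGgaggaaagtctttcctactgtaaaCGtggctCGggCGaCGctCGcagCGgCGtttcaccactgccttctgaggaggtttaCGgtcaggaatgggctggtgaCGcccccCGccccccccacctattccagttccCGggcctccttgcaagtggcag
*Gata3* site at -1104 bp, chr2:9879604-9879804, plus strand: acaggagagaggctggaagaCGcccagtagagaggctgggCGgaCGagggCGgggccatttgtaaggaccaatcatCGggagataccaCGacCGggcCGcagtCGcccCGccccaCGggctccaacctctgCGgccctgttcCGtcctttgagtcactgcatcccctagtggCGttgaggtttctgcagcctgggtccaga
*Gata4* site at -24518 bp, chr14:63296110-63296310, plus strand: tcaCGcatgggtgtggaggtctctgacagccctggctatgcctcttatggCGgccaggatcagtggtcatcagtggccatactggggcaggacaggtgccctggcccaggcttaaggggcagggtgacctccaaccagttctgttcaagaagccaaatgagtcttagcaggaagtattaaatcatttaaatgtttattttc
The window 4039 bp upstream of *Gata2* held 21 CpG, those of *Sox4* held 15 and 14, and that of *Gata3* held 14. The median window around all pooled BRG1 summits held 5, with quartiles at 3 and 10. Unlike the printed windows, those were not chosen by the number of replicate lists. The *Gata2* window at 38342 bp held 12 CpG, the *Gata2* window at -46261 bp held 5 and the *Gata4* window held 2. One further *Gata2* window, 851 bp upstream of a TSS, recurred in 4 lists and held 19 CpG. The motif ACAATG, which SOX factors bind, was found on the minus strand in the *Gata2* window at -46261 bp, at chr6:88147597-88147602. The motif searched for GATA factors, AGATAA, was not present in the printed windows on either strand. The same held for the steroid receptor motif, ACANNNTGT. Over the summit windows of all members, AGATAA stood in 4 of 41 pooled PBRM1 sites and 4 of 60 pooled BRG1 sites, beside 5.19% and 5.87% of all pooled windows. ACAATG stood in 1 and 3 of these sites, beside 6.71% and 7.96%, and ACANNNTGT in 1 and 2, beside 4.45% and 5.08%.

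The libraries held 8868777 to 16505239 fragments for PBRM1, with 21912 to 26363 peaks, and 11506964 to 14595089 fragments for BRG1, with 36656 to 40610 peaks. The most deeply sequenced PBRM1 library, replicate 3, had the fewest peaks. Promoter peaks were found in all 6 lists for 5 of 8 stromal marker genes (*Vim*, *Pdgfra*, *Hand2*, *Hoxa10* and *Nr2f2*) and for 0 of 7 epithelial, 1 of 4 endothelial, 1 of 3 smooth muscle and 0 of 4 immune marker genes. Of all protein-coding genes, 51.9% had one in all 6 lists. In all 3 BRG1 replicates the counts were 8 of 8 stromal, 4 of 7 epithelial, 3 of 4 endothelial, 2 of 3 smooth muscle and 0 of 4 immune markers, beside 61.4% of all genes. All 7 epithelial markers had pooled promoter peaks of both antibodies, so a pooled peak did not mark the cell type by itself. The part that epithelial cells in the cultures may have in the values of *Sox9* and *Sox17*, which are epithelial in the uterus, was not tested. No peak of any of the 4 immune markers appeared at a promoter in a replicate.

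BRG1 was found at the promoters of all 9 members in the pooled list, and PBRM1 at 7, all but *Gata4* and *Sox2*. Of all protein-coding genes, 72.1% had a pooled BRG1 promoter peak and 68.6% a pooled PBRM1 promoter peak. The replicates were less uniform. All 3 BRG1 replicates had a promoter peak at 6 members, *Gata2*, *Gata6*, *Sox4*, *Sox9*, *Sox17* and *Gata3*, where the share of all genes was 61.4%. All 3 PBRM1 replicates had one at 1 member, *Gata2*, where the share of all genes was 52.2%. At 4 members, *Sox9*, *Sox17*, *Gata4* and *Sox2*, no PBRM1 replicate had one, and the share of all genes with none was not counted. *Gata2* was thus the 1 member with a promoter peak in all 6 lists, as 51.9% of all genes had.

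The members were also set beside genes of like base composition at the 5′-most TSS, while a promoter peak could lie at any TSS. No replicate had a peak within 500 bp of the 5′-most TSS of *Gata3*, *Gata4* or *Sox17*. For these genes the composition is thus not that of the sequence under their replicate peaks. Within 500 bp of the 5′-most TSS of *Gata2*, 1 BRG1 replicate and no PBRM1 replicate had a peak. The *Gata2* promoter peak found in all 6 lists stood at another TSS, so the composition is not that of its sequence either. Within 500 bp of the 5′-most TSS, *Gata2*, *Sox9*, *Sox17*, *Sox2* and *Sox11* had at least 55% G and C and a ratio of observed to expected CpG of at least 0.6, the rule used here for a CpG-rich promoter. Of 8410 CpG-rich protein-coding genes, 83.8% had a promoter peak in all 6 lists, and of these 5 members 1 did, *Gata2*. Pooled peaks were found at 98.9% of CpG-rich genes for BRG1 and 97.5% for PBRM1, and at 5 and 4 of the 5 members. *Gata3* and *Gata4* fell short of both limits, with CpG ratios of 0.481 and 0.174, and *Gata6* had a ratio of 0.527. *Sox4* passed on its ratio, 0.796, and missed on its G and C content of 53.0%.

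**Figure D1:**
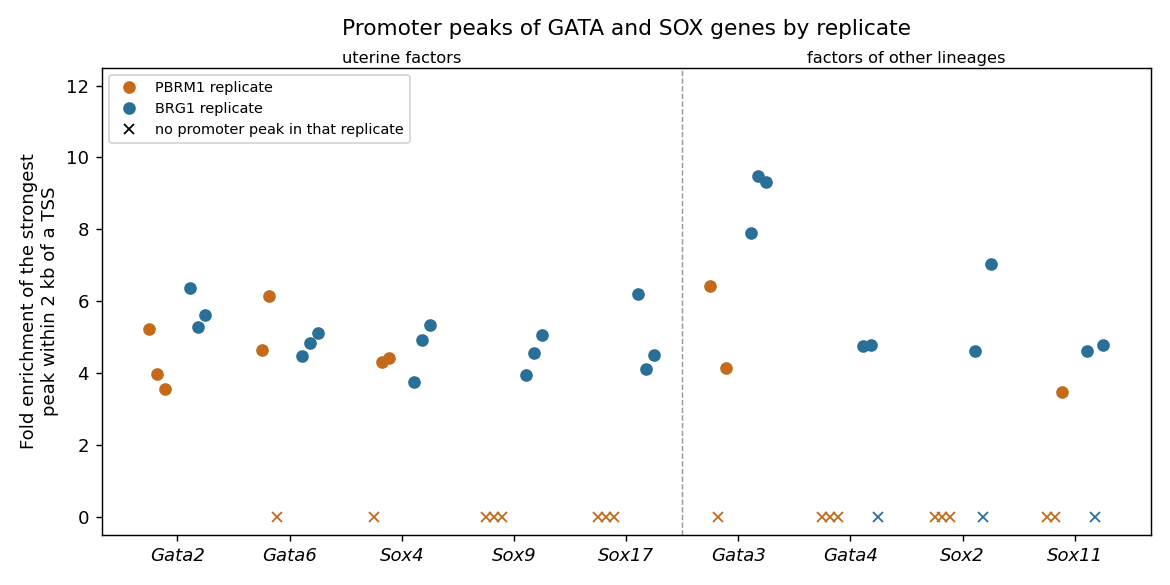
Fold enrichment of the strongest promoter peak (y axis) of each of the 9 genes (x axis) in each PBRM1 (orange) and BRG1 (blue) replicate, with a cross at 0 where a replicate had no promoter peak. *Gata2* has 6 points, and *Gata3* has the highest BRG1 points, 7.89 to 9.47.

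*Gata2* carried the promoter peak seen in every library. The gene lies on the plus strand at chr6:88193891-88207032 with 4 TSSs, and the strongest peak stood at the TSS at 88198334, its summit 266 bp downstream in the 5′ UTR. The fold enrichment over local background was 5.23, 3.96 and 3.55 in PBRM1 replicates 1, 2 and 3, and 6.36, 5.29 and 5.62 in BRG1 replicates 1, 2 and 3. The groups did not overlap. Because fold enrichments of different libraries are not on 1 scale, peaks were ranked by q-value within each list, where this peak stood at the percentiles 76.6, 62.7 and 56.1 for PBRM1 and 93.2, 84.0 and 87.0 for BRG1. The PBRM1 replicates had a mean percentile of 65.1 ± 10.5 (SD, n = 3) and the BRG1 replicates one of 88.0 ± 4.69 (SD, n = 3). The difference was 22.9 points, with p = 0.1 (exact permutation, two-sided), the lowest value that 3 against 3 can give. The same order without overlap was found at 40.1% of the 11376 genes with a promoter peak in all 6 lists. The BRG1 lists held more peaks, which can shift a rank within a list, and the part of this in the percentiles was not tested. At the 5′-most TSS, 88193891, 1 BRG1 replicate and no PBRM1 replicate had a peak within 500 bp.

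The chromatin around *Gata2* held 17 sites, the most of any member, and 2 of them were in all 6 lists. The second lay 4039 bp upstream of the 5′-most TSS, at chr6:88189440-88190077, in an intron and within 2 kb of a TSS of the lincRNA *Gm38708*, so that its gene cannot be told from its position. Its fold enrichment was 4.28, 3.89 and 4.53 in the PBRM1 replicates and 5.93, 6.26 and 5.51 in the BRG1 replicates. The PBRM1 percentile was 40.8 ± 12.7 (SD, n = 3) and the BRG1 percentile 73.6 ± 4.01 (SD, n = 3), again without overlap (difference 32.8, exact permutation test, p = 0.1). The share of all sites with this order was not counted. A distal site in an intron of *Dnajb8*, a cochaperone gene with no promoter peak in any replicate, lay 38342 bp downstream of the nearest *Gata2* TSS at chr6:88242575-88242981. It had fold enrichments of 4.80 and 5.30 in PBRM1 replicates 1 and 2, no peak in replicate 3, and 6.39, 7.63 and 7.43 in the BRG1 replicates. The distal site at -46261 bp was found in PBRM1 replicates 1 and 3 and BRG1 replicates 1 and 3, and in neither replicate 2. Over the 6 lists the fold enrichment of the *Gata2* promoter was most like those of *Tob1*, an antiproliferative gene, and *Gm47841*, at Euclidean distances of 0.180 and 0.225 on the log2 scale where the median of all genes was 1.76. These were picked as the 2 nearest of 11376 genes, so distances under the median follow from the choice.

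*Gata6* had 1 site that overlapped a peak in 5 of the 6 lists, though the antibodies peaked at different positions within it. The gene lies on the plus strand of chromosome 18 with 6 TSSs. Its strongest promoter peaks had fold enrichments of 4.64 and 6.16 in PBRM1 replicates 1 and 2, with no peak in replicate 3. In the BRG1 replicates they had 4.47, 4.84 and 5.11. None of these BRG1 peaks overlapped a PBRM1 replicate peak, so the values of the antibodies are not from the same position. The pooled summits of the antibodies lay 635 bp apart, within 1 broad site, which also lay within 2 kb of a TSS of the noncoding *1010001N08Rik*. The rest of the 50-kb surroundings was nearly empty, with 3 sites in all and no distal site that any replicate had called. Its 3 pooled BRG1 peaks placed it at percentile 29.7 of all genes, whereas the 15 around *Gata2* placed that gene at 90.0.

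*Sox4* had its most widely supported sites upstream of its promoter. The gene lies on the minus strand at chr13:28948919-28953713 with 1 TSS. At the promoter no peak was called in PBRM1 replicate 1, and the fold enrichment was 4.32 and 4.40 in PBRM1 replicates 2 and 3 and 3.75, 4.93 and 5.34 in the BRG1 replicates. Both neighbouring intergenic sites, 4917 and 5895 bp upstream (chr13:28958307-28959255 and chr13:28959453-28959962), overlapped a peak in all 6 lists and were the 2 distal sites around the members of which this was true. In PBRM1 replicate 3 a single peak covered both, with its summit in the site at -4917 bp, so that the site at -5895 bp had a summit of its own in 5 lists. The site at -5895 bp had fold enrichments of 5.76 and 5.58 in PBRM1 replicates 1 and 2 and 4.85, 5.21 and 7.60 in the BRG1 replicates, and its pooled PBRM1 and BRG1 summits lay 30 bp apart. The site at -4917 bp had 5.21, 3.55 and 4.33 for PBRM1 and 4.34, 3.93 and 3.99 for BRG1. At the site at -4917 bp the antibodies overlapped, with a difference in percentile, BRG1 minus PBRM1, of 6.07 points (exact permutation test, p = 0.8), and no test was run on the site at -5895 bp. With this site, the 2 of *Gata2* and 2 at *Fdft1* near *Gata4*, 5 sites were compared in this way. The share of all sites with BRG1 above PBRM1 without overlap was not counted, so these 5 have no background. Of the *Fdft1* sites, the one at 35696 bp had BRG1 above PBRM1 without overlap, by 7.61 points (exact permutation test, p = 0.1), and the one at 48809 bp differed by 10.5 points with overlap (exact permutation test, p = 0.2), so that the order seen at *Gata2* was not found at *Gata2* alone.

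**Figure D2:**
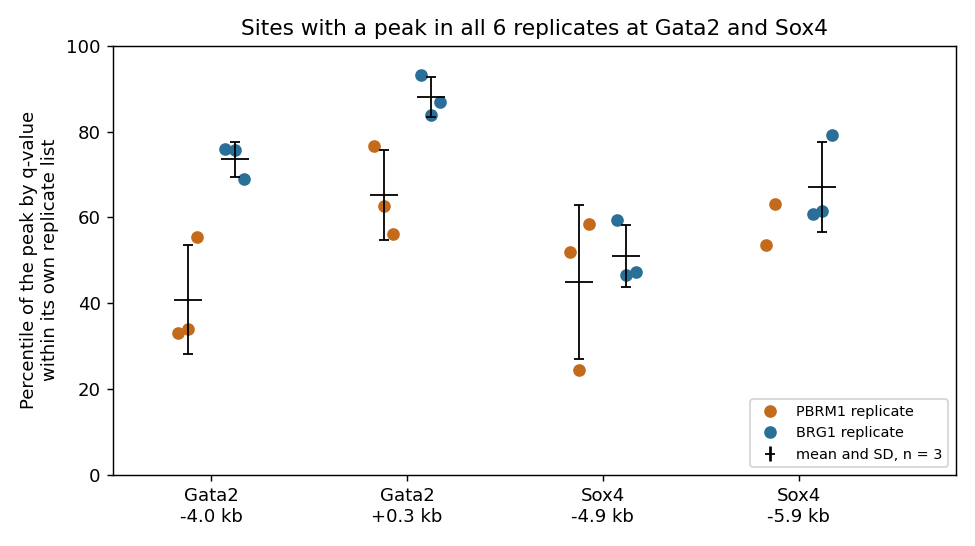
Percentile by q-value within its own list (y axis) of the peak at the 4 *Gata2* and *Sox4* sites found in all 6 replicates (x axis), by replicate, with the mean and SD of 3. BRG1 lies above PBRM1 without overlap at the 2 *Gata2* sites, the antibodies overlap at the *Sox4* site at -4917 bp, and the *Sox4* site at -5895 bp has 2 PBRM1 points and no PBRM1 mean, since the peak of PBRM1 replicate 3 has its summit in the neighbouring site.

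*Sox9* and *Sox17* had BRG1 peaks in every BRG1 replicate and no peak within 50 kb in any PBRM1 replicate. *Sox9* lies on the plus strand at chr11:112782224-112787760, and the fold enrichment of its strongest promoter peak was 3.95, 4.55 and 5.05 in BRG1 replicates 1, 2 and 3. These were not 1 site. The site at -779 bp was called in BRG1 replicates 1 and 3, and the site at 646 bp, in the coding exon, in BRG1 replicates 2 and 3. *Sox17* lies on the minus strand at chr1:4490931-4497354 with 8 TSSs, and its BRG1 values were 6.19, 4.11 and 4.49. Its site at -53 bp stood at 2 internal TSSs, 4493604 and 4493735, and was called in BRG1 replicates 1 and 3, while the peak of replicate 2 lay 1110 bp from the nearest TSS and overlapped no pooled peak. Within 500 bp of the other 6 *Sox17* TSSs, from 4496330 to 4497354, no list had a peak. The pooled PBRM1 list had weak promoter peaks at both genes, 3.00-fold at *Sox9* and 3.15-fold at *Sox17*, near percentiles 22.0 and 21.7 of that list.

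*Gata3* had the highest BRG1 fold enrichment at a promoter among the members, though not the highest rank by q-value in every list. The gene lies on the minus strand at chr2:9857078-9890034 with 6 TSSs, and 1 site, chr2:9879165-9879906, held the promoter peaks of all replicates that had one. The fold enrichment there was 6.41 and 4.13 in PBRM1 replicates 1 and 3, with no peak in replicate 2, and 7.89, 9.47 and 9.31 in the BRG1 replicates. In the BRG1 lists these values stood at percentiles 85.2, 89.6 and 87.9 by q-value, and the *Gata2* promoter peak ranked higher than that of *Gata3* in BRG1 replicate 1, at 93.2, and in the pooled BRG1 list, at 95.3 against 94.7. The site lay 1104 bp upstream of the *Gata3* TSS at 9878600, in an intron of the longer *Gata3* transcripts, and within 2 kb of TSSs of *4930412O13Rik* and the antisense *Gm13256*, so that the gene it serves cannot be read from its position. No replicate had a peak within 500 bp of any *Gata3* TSS. The sites nearest the 5′-most TSS, 9890034, were in the pooled lists only.

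*Gata4*, *Sox2* and *Sox11* had promoter peaks in some BRG1 replicates and in few PBRM1 replicates. *Gata4*, on the minus strand at chr14:63198922-63271692 with 5 TSSs, had fold enrichments of 4.75 and 4.78 in BRG1 replicates 1 and 2 and no promoter peak in replicate 3 or in any PBRM1 list. *Sox2*, a gene of 1 exon at chr3:34650405-34652461 within the noncoding *Sox2ot*, had 4.62 and 7.03 in BRG1 replicates 1 and 3, at 2 different sites, and none in replicate 2 or in any PBRM1 list. *Sox11*, on the minus strand at chr12:27334264-27342574, had 3.48 in PBRM1 replicate 3, at percentile 3.56 of its list, and 4.61 and 4.78 in BRG1 replicates 1 and 3. None of these 3 genes had a promoter peak in every replicate of either antibody.

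Away from their promoters these 3 genes differed. Around *Gata4* lay 15 sites, of which the 2 in all 6 lists were at *Fdft1*, the gene of squalene synthase, and one more, in 5 lists, was at *Neil2*, a DNA glycosylase gene. At the *Fdft1* site at 35696 bp the fold enrichment was 10.6, 8.34 and 6.90 in the PBRM1 replicates and 9.70, 12.6 and 12.0 in the BRG1 replicates, above every replicate value at the *Gata4* promoter. The intergenic site 24518 bp upstream of *Gata4*, chr14:63295941-63296872, had 4.43 and 3.79 in PBRM1 replicates 2 and 3, no peak in replicate 1, and 6.83, 6.78 and 5.80 in the BRG1 replicates. At *Sox2* the site at -15665 bp, in an intron of *Sox2ot*, had 4.27 and 6.82 in BRG1 replicates 1 and 3. At *Sox11* the intergenic site at -14878 bp had 5.68 in PBRM1 replicate 3 and 4.53 and 5.11 in BRG1 replicates 2 and 3. The best-supported distal sites of the remaining members were weak. Those of *Gata3* at -6253 bp and *Sox9* at -11855 bp were each in 1 BRG1 replicate, and those of *Gata6* and *Sox17* were in none.

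**Figure D3:**
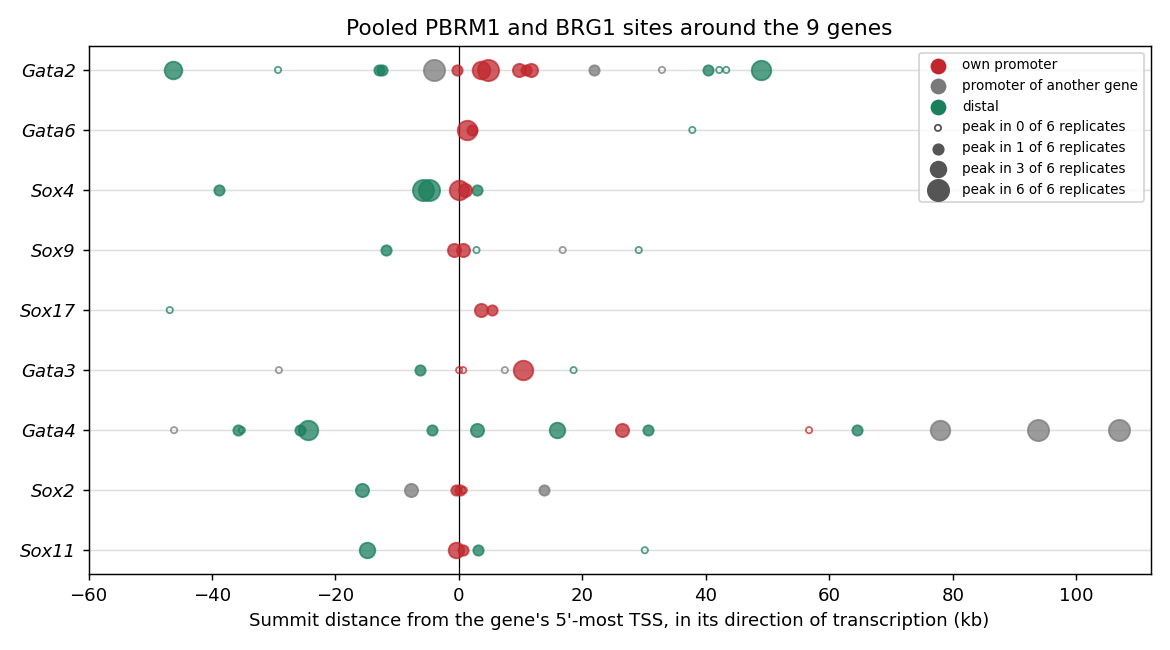
Pooled PBRM1 and BRG1 sites around each of the 9 genes, by the distance of the summit from the 5′-most TSS in the direction of transcription (x axis, kb), coloured by class and sized by the number of the 6 replicates with a peak. Of the 68 sites 6 have the largest circle, 2 at *Gata2*, 2 at *Sox4* and 2 at the *Fdft1* gene near *Gata4*.

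In all, 68 sites lay within 50 kb of the members, 24 at their own promoters, 12 at promoters of other genes and 32 distal. Both pooled lists covered 33 of them, the pooled BRG1 list alone 27 and the pooled PBRM1 list alone 8. Of the 93339 sites on all chromosomes, 42.1% were in the pooled BRG1 list alone and 12.6% in the pooled PBRM1 list alone, and the BRG1 lists were the longer ones. Replicates of BRG1 and of no PBRM1 supported 25 of the 68 sites, beside 25.9% of all sites, and the reverse held for 4, beside 5.56%. No replicate supported 19 sites, beside 38.9% of all sites, and these rest on the joined fragments alone. In the replicate lists 4 peaks, of *Sox4*, *Sox17*, *Gata4* and *Sox2*, overlapped no pooled peak.

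All 5 uterine factors had a promoter peak in every BRG1 replicate, and 4, 2 and 3 of the other 4 had one in replicates 1, 2 and 3. Of all protein-coding genes, 61.4% had one in every BRG1 replicate. The number of BRG1 peaks at the gene's own promoter was 1.93 ± 0.503 per gene (SD, n = 3 replicates) for the uterine factors and 0.833 ± 0.289 (SD, n = 3) for the others, a difference of 1.10 ± 0.265 that was positive in 3 of 3 replicates. For PBRM1 the own-promoter difference was 0.417 ± 0.553 (SD, n = 3) and ranged from -0.100 to 1.00 over the replicates. In the pooled BRG1 list the own-promoter difference was 0.300 peaks per gene. At BRG1 peaks by promoters of other genes the order was opposite, 0.267 ± 0.115 against 1.00 ± 0.250 (SD, n = 3). Distal BRG1 peaks numbered 0.933 ± 0.306 against 1.58 ± 0.382 per gene. *Gata4* decided both orders. With *Gata4* among the uterine factors, BRG1 peaks by promoters of other genes came to 0.722 ± 0.096 against 0.333 ± 0.333 and distal BRG1 peaks to 1.44 ± 0.509 against 0.778 ± 0.192 (SD, n = 3). Counted together within 50 kb, BRG1 peaks came to 3.13 ± 0.808 against 3.42 ± 0.382, a difference of -0.283 ± 0.465 that ranged from -0.800 to 0.100. For PBRM1 the same counts were 1.73 ± 0.702 and 1.42 ± 0.382, a difference of 0.317 ± 0.978 that ranged from -0.500 to 1.40. Neither total differed between the groups by more than the spread between replicates. The genes are not replicates of a group, and with 5 and 4 of them no test was run.

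Both groupings depend on what is counted. A pooled BRG1 promoter peak that itself overlapped a peak in all 3 BRG1 replicates was found at *Gata2*, *Gata6*, *Sox4* and *Gata3*, that is 3 of 5 uterine factors and 1 of 4 others, where 60.8% of all genes had one. For PBRM1 this held for *Gata2* alone, where 51.3% of all genes had one. With *Gata4* counted as a uterine factor, the difference within 50 kb became 1.89 BRG1 and 1.72 PBRM1 peaks per gene. *Gata4* and *Gata2* had the most peaks. The *Gata4* sites at *Fdft1* and *Neil2* lay within 50 kb of its TSS at 63213607 and of no other *Gata4* TSS. Without BRG1 replicate 2, *Sox2* and *Sox11* also had a promoter peak in each remaining BRG1 replicate, so that 3 of the 4 other factors did, and without replicate 3 *Gata4* did, so that 2 of 4 did. The width searched depends on the number of TSSs and on how far apart they lie. That number ran from 1 to 8 among the uterine factors and from 1 to 6 among the others. The 8 TSSs of *Sox17* lay between 4493604 and 4497354, and the 5 of *Gata4* between 63213607 and 63271692, so *Gata4* had the wider window. The part of this width in the counts was not tested.

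**Figure D4:**
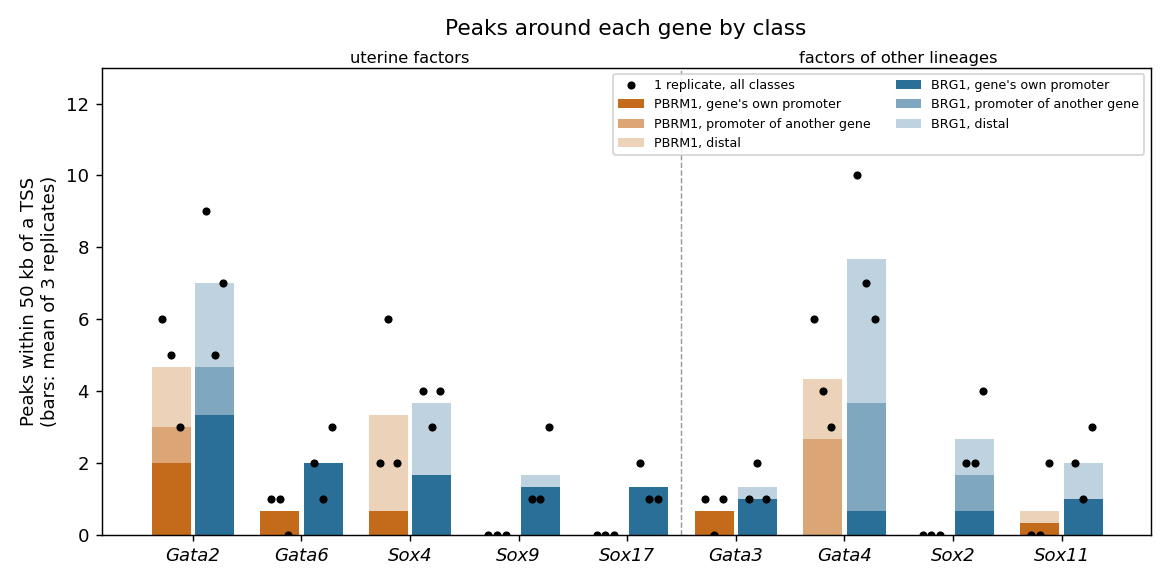
Number of peaks within 50 kb of a TSS of each gene (y axis), as bars of the mean over 3 replicates split by class and as a point for each replicate, for PBRM1 (orange) and BRG1 (blue). *Gata2* and *Gata4* have the tallest bars, and no PBRM1 replicate has a peak around *Sox9*, *Sox17* or *Sox2*.

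Between the antibodies, 3 members had more peaks within 50 kb in every BRG1 replicate than in every PBRM1 replicate, *Sox9*, *Sox17* and *Sox2*, where 19.7% of all genes did. None had fewer in every BRG1 replicate, as 0.041% of all genes did. *Sox2* had 2, 2 and 4 peaks in the BRG1 replicates, *Sox9* 1, 1 and 3, and *Sox17* 2, 1 and 1, and each had 0 in all 3 PBRM1 replicates. The differences in means were 2.67, 1.67 and 1.33 peaks (two-sided exact permutation test, p = 0.1 each, adjusted p = 0.507 over all genes by Benjamini-Hochberg). The BRG1 lists were longer. Counted per 10000 peaks of the list, the same 3 members remained above, now beside 4.82% of all genes, and 19.7% of all genes were below. A PBRM1 count of 0 cannot change with such scaling. With only peaks of a −log10 q-value of at least 5 the 3 members were others, *Gata2*, *Sox4* and *Gata4*, and the share of all genes was not counted.

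*Gata2* had 6, 5 and 3 PBRM1 peaks and 9, 5 and 7 BRG1 peaks within 50 kb, which overlapped (difference 2.33, exact permutation test, p = 0.3). *Gata4* had 6, 4 and 3 PBRM1 peaks and 10, 7 and 6 BRG1 peaks, which met at 6 (difference 3.33, exact permutation test, p = 0.2). *Sox4* had 2, 6 and 2 PBRM1 peaks and 4, 3 and 4 BRG1 peaks, and the 6 peaks of PBRM1 replicate 2 were the most of its 6 lists. *Gata6*, *Gata3* and *Sox11* had 0 to 2 PBRM1 and 1 to 3 BRG1 peaks, with overlap. The median protein-coding gene had 2 peaks in each PBRM1 replicate and 3 in each BRG1 replicate.

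Further genes of both families ranged from peaks in every library to none. Of 16 such GATA and SOX genes, 6 had a promoter peak in all 6 lists, *Gata5*, *Sox5*, *Sox6*, *Sox8*, *Sox12* and *Sox13*. None in any replicate was found at 3, *Gata1*, the erythroid factor, and *Sox1* and *Sox3*, close relatives of *Sox2*. In the pooled BRG1 list *Sox1* and *Sox3* had promoter peaks, of 3.85-fold and 4.00-fold, and *Gata1* had none in either pooled list. *Sox12*, of the same SoxC group as *Sox4* and *Sox11*, had fold enrichments of 7.62, 7.31 and 5.94 for PBRM1 and 6.82, 7.66 and 7.17 for BRG1, and its percentile was at least 90.6 in each list. *Sox8*, of the same SoxE group as *Sox9*, had 5.73, 6.13 and 5.45 for PBRM1 and 9.63, 9.91 and 9.02 for BRG1, while *Sox10*, of that group too, had peaks in 2 lists. The relatives of *Sox17*, *Sox7* and *Sox18*, had peaks in 4 and 2 lists, with no PBRM1 replicate at *Sox18*. Of 6 genes of GATA partners, 4 were marked in all 6 lists. These were *Zfpm1* (FOG1), *Tal1*, *Lmo2* and *Ldb1*, which act with GATA factors in blood cells, while *Trps1* had peaks in 5 lists and *Zfpm2* (FOG2), the partner of GATA4 in heart and gonad, in 3. These counts, 6 of 16 and 4 of 6, stand beside 1 of 9 for the members and 51.9% of all genes, and the lists were too small and too selected for a test.

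**Figure D5:**
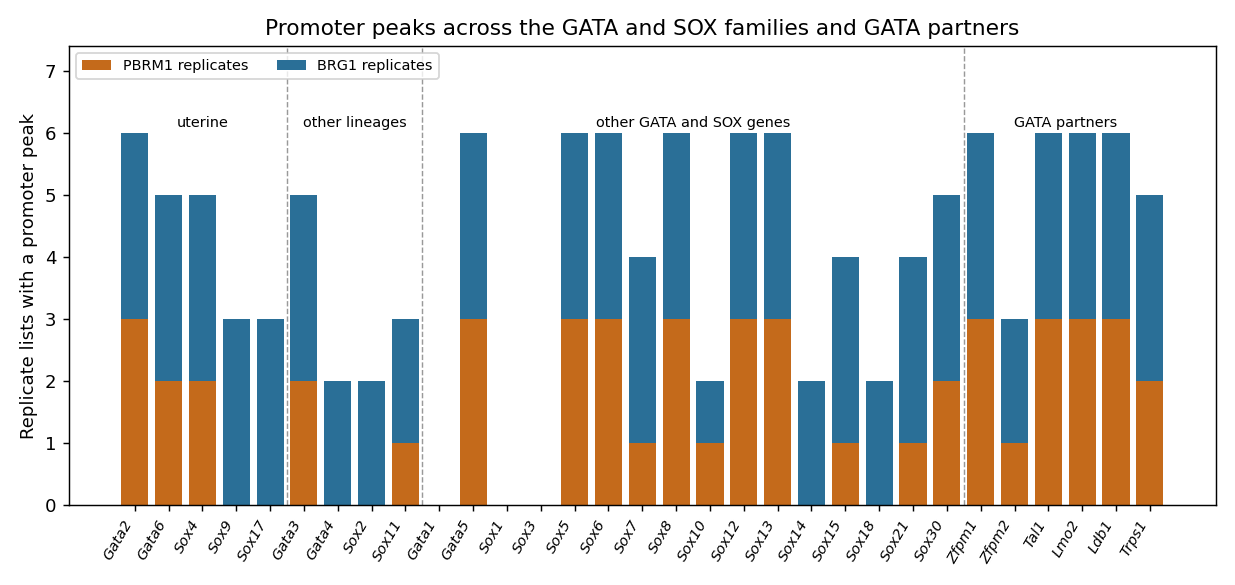
Number of replicate lists with a promoter peak (y axis), PBRM1 (orange, up to 3) and BRG1 (blue, up to 3), for the 9 members, 16 other GATA and SOX genes and 6 genes of GATA partners (x axis). Of the 9 members *Gata2* alone reaches 6, beside 6 of the 16 other family genes and 4 of the 6 partners.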

How the data were processed

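Peak lists of 3 PBRM1 and 3 BRG1 replicates and of the pooled fragments of each antibody were analysed. The methods describe trimming, alignment to mm10 with Bowtie2 and removal of duplicates and poorly mapped pairs by the authors. Per the file headers, MACS 2.2.7.1 then called peaks at a q-value of 0.05 without a control file, against a background of up to 10000 bp around each peak. The deposited lists hold the pileup signal, the −log10 q-value and the fold enrichment of each peak relative to the surroundings in its own library. Fold enrichments were described, and the −log10 q-values were used to rank and filter peaks within a list. Peaks without a control may also mark open chromatin, which these lists cannot separate, and a missing peak is not shown to be missing binding. The labels do not say that replicates came from separate pools, so p-values measure the spread between these samples only.

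Peaks were intersected with the GENCODE annotation of mm10 in Python 3.11.15 (numpy 2.4.6, pandas 2.3.3, pysam), with a minimum of 1 bp, promoters of 2 kb and windows of 50 kb around every TSS. RefSeq sequence of the same build was used, and no peak ran past a chromosome end. Antibodies were compared by two-sided exact permutation tests. The members, groups, partner, marker and motif lists and the rules for sites were chosen with earlier results of these data known, and the CpG counts, the counts of peaks by class and the shares of all sites were added after values were seen. All 9 members are named; other family and partner genes are named when in all 6 replicate lists or in none, and *Sox7*, *Sox10*, *Sox18*, *Trps1* and *Zfpm2* were named outside this rule after their values were seen. Distal sites are the best supported of each member, with ties by pooled BRG1 fold enrichment. Counting and permutation steps were tested on simulated data. Alternatives were other promoter and window distances, a −log10 q-value of at least 5, summits, basic TSSs, shared peaks, *Gata4* in the other group, and each replicate left out.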

Additional observations from a re-analysis of the deposited data

How the results depend on the processing

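The 7 members with a pooled PBRM1 promoter peak fell to 1 when the pooled peak had to overlap a peak in all 3 replicates, and the 9 with a pooled BRG1 promoter peak fell to 4. With 1 replicate left out and a peak required in each of the others, 2 members had a pooled PBRM1 promoter peak each time (in turn *Gata2* with *Sox4*, *Gata3* or *Gata6*) and 5 to 7 a pooled BRG1 promoter peak. Members with a promoter peak in all 6 lists numbered 2 with promoters of 5 kb (*Gata2* and *Sox4*) and 1 to 2 with 1 replicate left out, and leaving out PBRM1 replicate 1, 2 or 3 added *Sox4*, *Gata3* or *Gata6*. The differences within 50 kb between uterine and other factors had no fixed sign. For PBRM1 the difference was 1.72 with *Gata4* among the uterine factors, -0.150 in the pooled list, and -0.225 to 0.725 with 1 replicate left out. For BRG1 it was 0.950 within 100 kb, 1.89 with *Gata4* among the uterine factors, -1.95 in the pooled list, and -0.475 to -0.025 with 1 replicate left out. The difference in own-promoter BRG1 peaks, 1.10, stayed positive in all 5 alternatives, from 0.300 in the pooled list to 1.20. With *Gata4* among the uterine factors the differences for BRG1 peaks at promoters of other genes and for distal BRG1 peaks, -0.733 and -0.650, turned to 0.389 and 0.667, and in the pooled list they were -1.10 and -1.15. The 5 uterine factors with a peak in every BRG1 replicate fell to 3 at a −log10 q-value of at least 5, and to 4 with basic TSSs, which do not hold the internal *Sox17* starts. With same-numbered replicates paired as a replicate block, 5 members had more BRG1 than PBRM1 peaks in each of the 3 pairs, beside 3 without pairing. With 1 replicate left out and no pairing, 3 to 5 members did. The share of all genes was not counted under these rules, so these counts have no background. Deviations of same-numbered replicates had correlations of -0.056, -0.040 and 0.021 over genes, and those of other numbers -0.039 to 0.079. With few peaks per gene these values cannot tell whether same-numbered replicates shared a pool. The factors of other lineages with a peak in every BRG1 replicate numbered 2 with promoters of 5 kb (*Gata3* and *Gata4*). For the pooled and 6-list counts and the differences within 50 kb, the remaining alternatives stayed within 1.5 times or 1 SD, though the BRG1 difference was 0.067 within 25 kb and 0.050 at a −log10 q-value of at least 5.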
